A study of Homo sapiens with 21 samples.

Results

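Of the 10045 regions enriched with LY500307 on chromosomes 1 to 22 and X, 815 (8.11%) overlapped no region of the estradiol list by 1 bp or more. These 815 regions, called members below, are described here, and 9230 LY500307 regions shared with the estradiol list serve as their comparison. Of the members, 144 overlapped a region of the ethanol vehicle list and 671 did not. The members were chosen by the overlap of region coordinates between the lists, which rests on the calls of each list, so their number and their weakness relative to the shared regions are descriptions and were given no test.

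The lists came from chromatin immunoprecipitation and sequencing (ChIP-seq) with the Flag antibody M2 in MDA-MB-231, an established triple-negative breast cancer line, carrying Flag-tagged estrogen receptor beta (ER-beta) under doxycycline control. All groups shared this transgene and 24 h of doxycycline at 100 ng/ml, and then had 3 h of LY500307, 1 nM estradiol or ethanol vehicle. The characteristics give LY500307 as 10 nM and the titles as 1 nM, so its dose is uncertain. Each treatment had 4 ChIP and 3 input libraries by the labels, while the protocol speaks of triplicates, and 1 pooled list of regions, so there is no replicate error and treatments were not tested against each other. Read depth is unknown from the lists, no expression was measured, and the line and receptor level were not checked against markers. Intervals in parentheses are 95% Wilson intervals for shares and order-statistic intervals for medians, and they cover counting error only.

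ER-beta is a nuclear receptor that binds the estrogen response element (ERE), an inverted repeat of the arm AGGTCA, and can also be held at DNA by other factors such as AP-1 and SP1. Estradiol activates both estrogen receptors, whereas LY500307 is a synthetic agonist that prefers ER-beta. A ChIP-seq region is a stretch where the antibody recovered more fragments than the local background, and its summit is the base of highest signal.

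A sequence that recurred in members was a pair of short AAGG elements. It reads AAGGNAGA, then 4 or 5 bases of any kind, then TAAGG, and was accepted on either strand with at most 2 mismatches in its 12 fixed bases. This pattern was written down after the sequences had been seen. The following 6 members with an ethanol region are those with the highest −log10 q that hold the pair, each read from hg38 on the strand of the element, 5′ to 3′, with the pair and its spacer in capitals.
LDB2 intron 6, chr4:16511279-16511339, plus strand: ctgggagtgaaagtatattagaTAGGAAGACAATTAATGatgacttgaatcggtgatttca
WDR82 intron 1, chr3:52272131-52272191, minus strand: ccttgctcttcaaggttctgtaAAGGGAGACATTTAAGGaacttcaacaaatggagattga
MGAT5 intergenic, chr2:133991542-133991602, minus strand: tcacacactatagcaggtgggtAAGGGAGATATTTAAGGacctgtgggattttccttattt
SETBP1 intron 2, chr18:44779733-44779793, minus strand: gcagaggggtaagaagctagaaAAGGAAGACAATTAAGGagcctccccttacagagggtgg
BTN3A1 intron 9, chr6:26411798-26411858, plus strand: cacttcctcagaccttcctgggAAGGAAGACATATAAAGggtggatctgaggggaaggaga
CDH11 intergenic, chr16:65273827-65273888, plus strand: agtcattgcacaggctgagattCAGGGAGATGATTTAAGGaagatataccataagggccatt

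The same element stands in the 6 members without an ethanol region that have the highest −log10 q among those that hold it. Both sets were picked by the same pattern, so the likeness of their copies follows from the choice.
CACNA2D3 intron 9, chr3:54594559-54594620, minus strand: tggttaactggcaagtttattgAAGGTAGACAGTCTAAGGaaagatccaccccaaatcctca
LRFN5 intergenic, chr14:40687510-40687570, plus strand: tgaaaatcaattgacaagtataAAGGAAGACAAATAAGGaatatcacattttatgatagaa
IGF1R intergenic, chr15:98507177-98507237, minus strand: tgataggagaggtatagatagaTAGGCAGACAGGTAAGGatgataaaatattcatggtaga
SNX7 intergenic, chr1:98425649-98425709, minus strand: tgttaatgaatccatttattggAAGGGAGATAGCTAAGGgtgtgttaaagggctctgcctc
MGST1 intron near LMO3, chr12:16504720-16504780, minus strand: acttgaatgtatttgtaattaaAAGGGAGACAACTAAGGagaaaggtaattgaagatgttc
KCNJ3 intergenic, chr2:155026605-155026665, minus strand: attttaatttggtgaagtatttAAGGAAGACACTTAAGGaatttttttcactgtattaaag
Of these 12 copies, 8 had no mismatch, 3 had 1 and the LDB2 copy had 2.

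The 6 members with an ERE within 100 bp of the summit are shown next, with the ERE in capitals. The ERE was sought as GGTCA, any 3 bases and TGACC, with at most 1 mismatch in its 10 fixed bases, and every one of these members lay outside the ethanol list.
DNAH14 intron, chr1:224904153-224904189, plus strand: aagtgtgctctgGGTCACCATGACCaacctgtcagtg
TRPM2 exon 32, chr21:44441989-44442025, plus strand: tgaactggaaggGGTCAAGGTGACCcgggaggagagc
CASP8 promoter, chr2:201259481-201259517, plus strand: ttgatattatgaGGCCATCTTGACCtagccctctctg
MGAM intron 5, chr7:142021471-142021507, plus strand: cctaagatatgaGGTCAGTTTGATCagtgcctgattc
GPD2 intron 6, chr2:156545294-156545330, plus strand: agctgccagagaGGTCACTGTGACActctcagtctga
Intergenic, nearest start RPS29, chr14:49106852-49106888, plus strand: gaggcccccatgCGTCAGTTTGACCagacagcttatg
The DNAH14 and TRPM2 copies had no mismatch and the other 4 had 1.

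For contrast, the 81 bases around 2 promoter summits hold neither the AAGG pair nor an ERE, at GEMIN4 with an ethanol region and at SLF2 without.
GEMIN4 promoter, chr17:751967-752047, plus strand: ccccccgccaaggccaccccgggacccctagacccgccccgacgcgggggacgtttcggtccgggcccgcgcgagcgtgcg
SLF2 promoter, chr10:100913009-100913089, plus strand: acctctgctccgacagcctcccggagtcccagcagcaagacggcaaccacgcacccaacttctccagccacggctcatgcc

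Members were weak regions. Their strength is given by the authors' fold, the enrichment of the pooled ChIP over the local background, and by −log10 q, where a higher value is a stronger call. The median fold was 6.43 (6.22 to 6.79) for members with an ethanol region and 5.40 (5.32 to 5.44) for members without, against 9.21 (8.98 to 9.32) for shared regions. The median −log10 q was 8.33, 5.86 and 17.4 in the same order, and the median width was 278, 234 and 309 bp. The highest fold was 14.6 among members with an ethanol region and 10.9 among members without, against 143 among shared regions. In the weakest decile of the LY500307 list by −log10 q, 347 of 1005 regions were members (34.5%), and the share was 19.8%, 12.7%, 7.77%, 4.08%, 1.69% and 0.498% in the deciles above it. The 3 strongest deciles held no member.

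**Figure D1:**
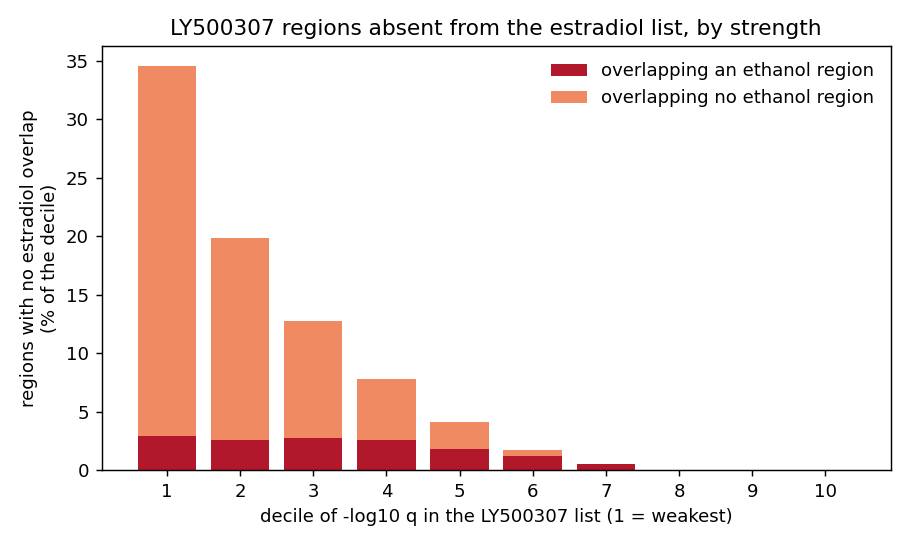
Share of the regions of each decile of −log10 q in the LY500307 list that overlap no estradiol region, split by overlap with the ethanol list (red, with; orange, without). The share falls from 34.5% in the weakest decile to 0 in the 3 strongest, while the number with an ethanol region stays between 26 and 29 in the lowest 4 deciles.

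An ethanol region was overlapped by 144 of 815 members (17.7%, 15.2 to 20.4), beside 22.9% of all LY500307 regions and 2154 of 9230 shared regions (23.3%). This order changed with strength. In the weakest quartile 71 of 617 members (11.5%, 9.22 to 14.3) had an ethanol region, against 252 of 1895 shared regions (13.3%, 11.8 to 14.9). In the second quartile 56 of 176 members had one (31.8%, 25.4 to 39.0), against 246 of 2335 shared regions (10.5%, 9.35 to 11.8). In the third quartile 17 of 22 members had one (77.3%, 56.6 to 89.9), against 12.7% of shared regions, and 6 of these 17 were neighbours in HDAC7. The strongest quartile held no members, and 53.4% of its shared regions overlapped the ethanol list. Among the 144, the median fold was 6.43 with LY500307 and 6.22 with ethanol, and the ethanol fold was the higher of the pair in 69. The pools were scaled separately, so a difference between these folds is no measure of change.

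Members without an ethanol region lay in promoters more often than members with one, by an amount that depended on the overlap rule. Summits fell in a promoter, taken as from 1000 bp before to 100 bp after the transcription start site (TSS) of a protein-coding gene, for 7 of 144 members with an ethanol region (4.86%, 2.37 to 9.69) and 130 of 671 members without (19.4%, 16.6 to 22.5), against 13.8% (13.1 to 14.5) of shared regions. Had members been the regions with no estradiol summit within 200 bp, the values would be 16.9% (12.8 to 22.1) with an ethanol region and 22.8% (20.3 to 25.5) without, with intervals that overlap. Under the overlap rule, promoters in the weakest strength quartile held 5.63% and 21.98% of the 2 kinds of member, against 25.8% of shared regions. In the second quartile the values were 5.36%, 8.33% and 12.2% in the same order. Within these quartiles, members without an ethanol region thus lay in promoters less often than shared regions. Intergenic summits made up 48.6% (40.6 to 56.7) of members with an ethanol region and 37.4% (33.8 to 41.1) of members without, against 36.4% of shared regions. Introns held 39.6%, 37.6% and 43.6% in the same order. Coding exons held 9 members with an ethanol region (6.25%, 3.32 to 11.5), of which 5 lay in HDAC7, and 3.43% of members without, against 2.90% of shared regions. The median distance to the nearest TSS was 39.2 kb for members with an ethanol region and 18.3 kb for members without, against 13.6 kb for shared regions. Of members without an ethanol region, 214 of 671 (31.9%) had a TSS within 1 kb, while 25% lay beyond 108 kb. The nearest 25% lay within 1055 bp of a TSS for all LY500307 regions and 1112 bp for shared regions. The farthest 25% lay beyond 54566 bp and 51500 bp in the same order.

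The distance of members to the nearest estradiol region is set in part by the rule that chose them, and is a description. The median gap was 53.2 kb (36.3 to 76.4) for members with an ethanol region and 35.3 kb (28.9 to 41.7) for members without. With the rule on summit distance in place of overlap, it was 6.98 kb and 5.77 kb. Under the overlap rule the gap was at most 1 kb for 10 of 144 members with an ethanol region (6.94%) and 121 of 671 without (18%). The gap differed with position: its median was 0.916 kb (0.587 to 12.8) for the 137 members at promoters and 49.4 kb (42.5 to 55.5) for the other 678. The farthest members without an ethanol region lay near CPXCR1 on the X chromosome (gap 3.93 Mb, fold 5.86), PRDM9 (3.04 Mb, fold 7.21), in intron 3 of EPHA7 (2.93 Mb, fold 7.95), and near AMY1C (2.35 Mb) and CADM2 (2.26 Mb). PRDM9 is the methyltransferase that places meiotic recombination sites, and EPHA7 is an ephrin receptor. The farthest with an ethanol region lay near MANEA (3.10 Mb, LY500307 fold 7.95, ethanol fold 7.33), NOVA1 (2.64 Mb), MAGEB16 (2.17 Mb), AUTS2 (2.01 Mb) and TENM4 (2.0 Mb).

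The rule has a sharp edge at 1 bp of overlap. The 17 members within 50 bp of an estradiol region had a median fold of 5.02 and a median GC content of 69.2%, and 9 lay in promoters. The 18 shared regions that overlapped the estradiol list by at most 50 bp had a median fold of 5.19 and a median GC content of 67.4%, and 7 lay in promoters. Neither set held an ERE or an AAGG pair. Their median GC content was above the 44.8% of all members in both cases.

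Across chromosomes, members made up from 3 of 212 LY500307 regions on chromosome 22 (1.42%, 0.482 to 4.08) to 64 of 552 on chromosome 5 (11.6%, 9.18 to 14.5). Most members stood alone: 758 had no other member within 100 kb, and 22 pairs held 44. Groups of 3 or more numbered 3. One lay at HDAC7 with 7 members, one on chromosome 11 near BCL9L, RPS25 and DPAGT1 (3 members, folds 3.90 to 6.09), and one on chromosome 17 at ALKBH5, MIEF2 and SMCR8 (3 members, folds 4.79 to 6.61). No member of the chromosome 11 and 17 groups overlapped the ethanol list.

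Members were poorer in G and C than shared regions. The median GC content of the window of 100 bp on each side of the summit was 42.3% (40.3 to 44.8) for members with an ethanol region and 45.3% (43.8 to 48.3) for members without, against 54.7% (54.7 to 55.2) for shared regions. In windows 2000 bp downstream the medians were 40.8%, 41.3% and 46.8%. A GC content below 40% was found in 39.6% of members with an ethanol region and 32.2% of members without, against 4.0% of shared regions. Promoter summits were the exception: the median was 66.2% (63.7 to 67.7) for the 137 members at promoters and 68.2% for shared promoter regions, whereas it was 42.3% (41.3 to 43.3) for the other 678 members and 53.2% for other shared regions. Within the weakest strength quartile the medians were 43.3% and 47.3% for the 2 kinds of member, against 60.7% for shared regions, so the lower GC content was also seen within this quartile.

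**Figure D2:**
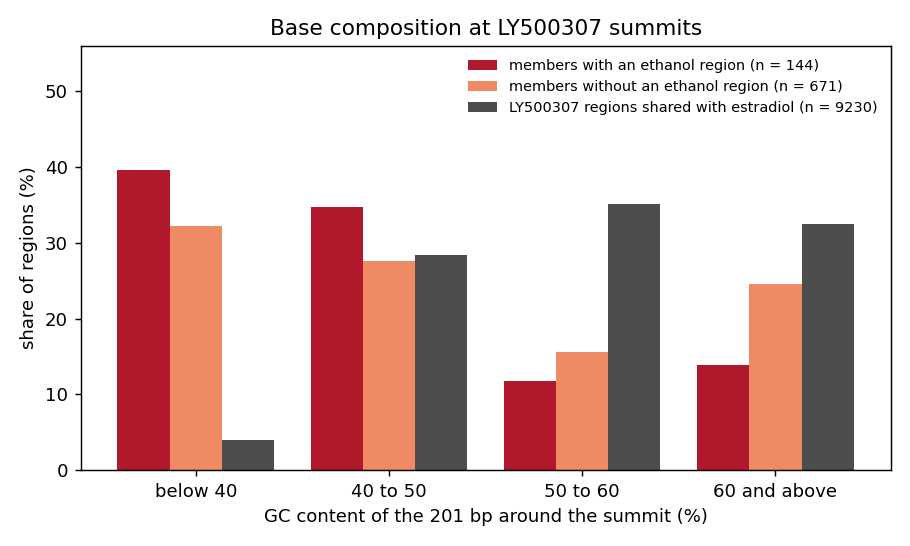
Share of regions in 4 classes of GC content of the window of 100 bp on each side of the summit, for members with an ethanol region (red), members without (orange) and LY500307 regions shared with estradiol (grey). Below 40% stand 39.6% and 32.2% of the members, against 4.0% of shared regions, and at 60% and above stand 13.9% and 24.6%, against 32.4%.

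The AAGG pair shown above was frequent in members. It was found within 100 bp of the summit in 77 of 144 members with an ethanol region (53.5%, 45.3 to 61.4) and 276 of 671 members without (41.1%, 37.5 to 44.9), against 573 of 9230 shared regions (6.21%, 5.73 to 6.72). Windows of the same length 2000 bp downstream held it in 4.86%, 4.92% and 5.59% in the same order, so in shared regions the summit share was close to the downstream share. Over all LY500307 regions the share was 9.22%. With at most 1 mismatch the pair was at 28.2% of all members, 1.69% of shared regions and none of the windows downstream of members. This share depends on the mismatches allowed and is not comparable with those of shorter elements matched exactly. Exact AAGGNAGA alone was in 29.9% (23 to 37.8) of members with an ethanol region and 26.7% (23.5 to 30.1) of members without, against 5.17% of shared regions.

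The pair was concentrated away from promoters. It was in 347 of 678 members outside promoters (51.2%, 47.4 to 54.9) and in 6 of 137 at promoters (4.38%, 2.02 to 9.23), against 6.70% and 3.14% of shared regions at those places. Distance from the summit was counted for exact AAGGNAGA alone and not for the pair, and in members these copies were concentrated close to summits. Within 50 bp of the summit, AAGGNAGA occurred 28.5 times per 100 regions and 100 bp in members with an ethanol region. The value was 20.7 in members without, against 2.95 in shared regions. At 200 to 500 bp from the summit the same values were 3.82, 3.55 and 3.18. In the weakest strength quartile the pair was in 50.7% of members with an ethanol region and 38.6% of members without, against 7.28% of shared regions. GC content moved with it: below 40% GC, it was in 59.6% and 65.3% of the 2 kinds of member, against 24.7% of shared regions, and at 40 to 50% GC in 35 of 50 and 104 of 185, against 8.88% of shared regions. At 60% GC and above it was in none of 20 and 3 of 165 members (1.82%), against 2.70% of shared regions.

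**Figure D3:**
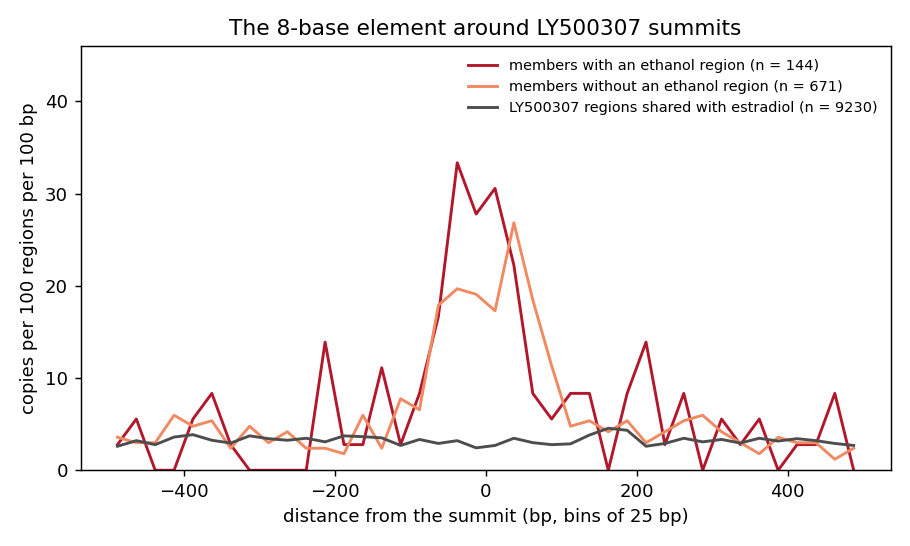
Copies of the 8-base element AAGGNAGA per 100 regions and 100 bp, in bins of 25 bp from 500 bp before to 500 bp after the summit, both strands together. Both kinds of member (red, with an ethanol region; orange, without) rise within 100 bp of the summit to averages of 28.5 and 20.7 over the central 50 bp on each side, while shared regions (grey) stay near 3.

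The pair was also frequent in regions that were in the ethanol list alone. Of 229 ethanol regions in neither ligand list, 83 held it (36.2%, 30.3 to 42.7), whereas it was in 840 of 17442 estradiol regions found in no other list (4.82%, 4.51 to 5.14). Shared LY500307 regions that also overlapped the ethanol list held it in 9.75% (8.57 to 11.1). The ethanol regions in neither ligand list were not members, and they had a median GC content of 50.2% and lay in promoters in 21.0%.

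The 8-base words within 50 bp of the summit were ranked by their share in members less that in shared regions. Rank 1 was AGGAAAGG, in 7.98% of members and 1.16% of shared regions, and rank 2 was AAGGAAAG, in 7.61% and 0.802%. Both can be read from AAAGG repeated end to end and are not forms of AAGGNAGA. Forms of AAGGNAGA came next. AAGGAAGA was in 61 of 815 members (7.48%) and 0.975% of shared regions, and AAGGGAGA in 6.75% and 0.683%. A word of another form, AGGTTAGG, was within 100 bp of the summit in 13.2% (8.61 to 19.7) of members with an ethanol region and 7.0% (5.31 to 9.19) of members without, against 2.2% of shared regions and at most 1.39% of downstream windows. It was rare beside the pair, in 3.12% of members that held the pair and 11.9% of those that did not. These words were ranked on the members themselves, so their frequencies are descriptions.

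EREs, the DNA sites of estrogen receptors, were nearly absent. With at most 1 mismatch and within 100 bp of the summit the ERE was in 0 of 144 members with an ethanol region (upper limit 2.60%) and in the 6 of 671 members without that are printed above (0.894%, 0.410 to 1.94), against 17.0% (16.3 to 17.8) of shared regions. In the weakest quartile the values were 0 and 0.733%, against 8.28% of shared regions, so members held an ERE less frequently within this quartile too. Over whole regions 7 of 671 members without an ethanol region held it. Ethanol regions in neither ligand list were like members in this: over whole regions 1 of 229 held an ERE (0.437%), beside 0.859% of all members and 18.1% of shared regions. AGGTCA was in 12.2% of these ethanol regions, beside 14.2% and 53.4%. Within 100 bp of the summit and with at most 2 mismatches the ERE was in 4.86% and 5.22% of the members, against 50.5% of shared regions. Downstream windows of the members held it at this setting in 4.86% and 5.66%, the same level as their summits.

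The 6 printed members with an ERE were of low to middle strength. The promoter of CASP8, the initiator caspase of death receptor signalling, had the highest fold of them, 7.53, with −log10 q 10.5, and lay 109 kb from the nearest estradiol region. The CASP8 summit lay inside the gene, 999 bp from the nearest TSS, and so only just within the promoter limit. MGAM, an intestinal starch-digesting enzyme gene, had fold 6.36, and its region also held an AAGG pair. DNAH14, an axonemal dynein gene, had fold 6.28. TRPM2, a calcium-permeable channel gene, had fold 5.69 over the 3′ UTR part of its exon. GPD2, the mitochondrial glycerol-3-phosphate dehydrogenase gene, had fold 5.32 and lay 5.55 kb from an estradiol region. The intergenic chromosome 14 member had fold 4.56 and held an AAGG pair as well. None overlapped the ethanol list, and 5 of the 6 lay outside promoters.

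In members, AGGTCA, AP-1, TEAD and GATA were at summits about as often as in the downstream windows, while SP1 and ETS were more frequent at the summits of members without an ethanol region than downstream of them. The ERE arm AGGTCA, which can overlap the ERE, was in 11.8% (7.50 to 18.1) of members with an ethanol region and 11.6% (9.41 to 14.3) of members without, against 47.8% (46.8 to 48.8) of shared regions, and downstream of members in 13.2% and 11.2%. The AP-1 site TGANTCA was in 7.64% and 4.92% of the members, against 18.1% of shared regions, and downstream of members in 6.25% and 6.11%. The TEAD site GGAATG was in 13.2% and 9.99%, against 17.7%, and downstream of members in 13.9% and 9.99%. The SP1 site GGGCGG was in 9.03% and 16.4%, against 19%, and downstream of members in 4.17% and 4.32%. It followed promoters, being in 66 of 137 members at promoters (48.2%) and 8.41% of the others. GATA preceded by A or T and followed by A or G was in 38.2% (30.7 to 46.3) and 34.3% (30.8 to 37.9), against 22.4% (21.5 to 23.2), but downstream of members it was in 38.2% and 32.2% as well. This GATA form can share its first letters with the end of AAGGNAGA, and it was in 51.0% of members with the pair and 22.7% of members without the pair. The FOXA site TGTTTAC was in 2.78% and 1.34%, against 1.65%, and downstream of members in 0 and 2.83%. The ETS site CCGGAA was in 2.08% and 4.92%, against 5.80%, and downstream of members in 0 and 1.19%. A match is a description of letters and not of a bound factor.

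**Figure D4:**
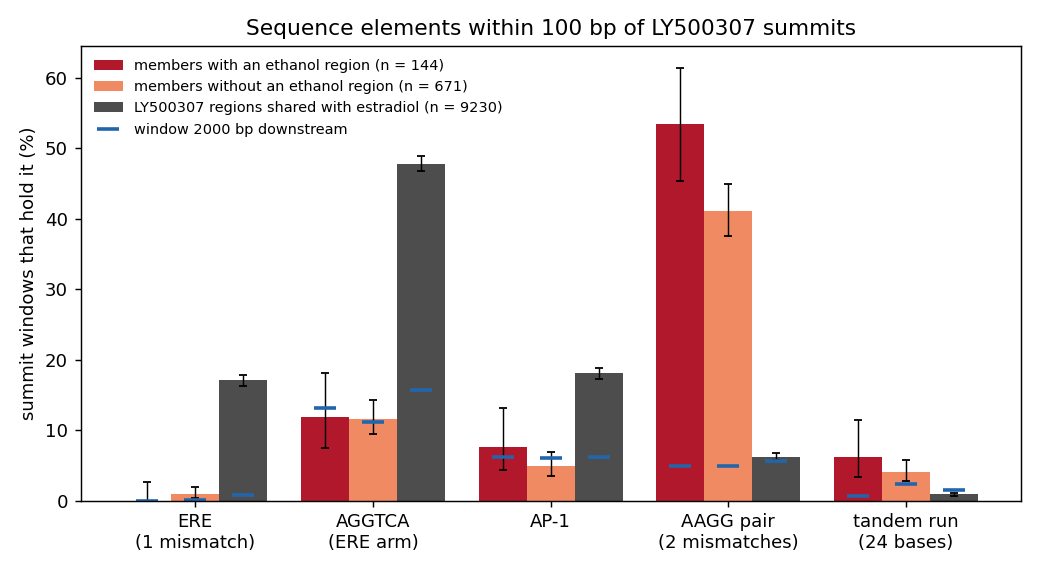
Share of windows of 100 bp on each side of the summit that hold each element, for members with an ethanol region (red), members without (orange) and LY500307 regions shared with estradiol (grey), with 95% Wilson intervals, and the share in windows 2000 bp downstream (blue dashes). The ERE, AGGTCA and AP-1 stand above the dashes in shared regions, while the AAGG pair stands at 53.5% and 41.1% in members against 6.21% in shared regions.

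Tandem runs were uncommon, yet more frequent in members. A perfect run of a 1 to 6 base unit over at least 24 bases was in 9 of 144 members with an ethanol region (6.25%, 3.32 to 11.5) and 27 of 671 without (4.02%, 2.78 to 5.79), against 81 of 9230 shared regions (0.878%, 0.707 to 1.09). Downstream windows held such a run in 0.694%, 2.38% and 1.54%. At least 25% of the window was masked as low-complexity sequence in 10.4% (6.41 to 16.5) and 10.9% (8.74 to 13.5) of the members, against 4.88% (4.45 to 5.33) of shared regions. In the weakest strength quartile this excess was absent, with 9.86% and 10.4% of the members against 10.4% of shared regions. In the second quartile both kinds of member were above the 4.11% of shared regions, with 13.3% of members without an ethanol region. Runs in the weakest quartile were in 7.04% and 3.85% of the members, against 0.844% of shared regions. Over all strengths the intervals of the 2 kinds of member overlapped for runs and for masked sequence. Over whole regions a run was in 4.91% of members and 7.42% of ethanol regions in neither ligand list, against 1.54% of shared regions.

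The longest runs with an ethanol region were 80 bases near KCTD8 (fold 6.43), 67 bases near MPP7 (fold 7.12), 59 bases near SYNDIG1, 58 bases in intron 4 of ZNF827 and 50 bases near RPLP1. Without an ethanol region they were 98 bases near PAX6 (fold 5.33), 84 bases near SFRP1 (fold 3.75), 81 bases in intron 11 of ANTXR2 (fold 6.07), 70 bases in the promoter of TTC9B (fold 6.84) and 69 bases near DRD1 (fold 6.08). All of these runs had the unit AAAGG, read on either strand. Of all runs, AAAGG was the unit in 6 of 9 with an ethanol region and 21 of 27 without, against 15 of 81 in shared regions. The most frequent unit in shared regions was AGGGC, in 16 of 81. Runs and the AAGG pair can overlap in sequence, and 17 of the 36 members with a run also held the pair. Beside this, the pair was in 43.3% of all members and 43.1% of members without a run. Without windows that hold a run, the pair was in 52.6% of members with an ethanol region and 41.1% of members without, against 6.11% of shared regions. Regions of repeated sequence can share fragments, and 45 members had a stretch of 30 bases in common with another member, 17 of them with no run. Shared regions were not counted in this way, so these counts have no comparison.

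The strongest members with an ethanol region lay in HDAC7, the gene of a class IIa histone deacetylase, where 6 of the 15 highest by −log10 q were found. In all, 7 members lay in HDAC7 between 47783939 and 47798989 of chromosome 12 (hg38), and none held the AAGG pair or an ERE. Their folds with LY500307 were 14.6, 10.0, 12.6, 8.35, 10.5, 11.4 and 10.3 in the direction of transcription, and those of the ethanol regions they overlapped were 22.8, 19.9, 11.9, 17.6, 14.4, 17.1 and 18.3. The ethanol fold was the higher in 6 of the 7. Between them, 2 further LY500307 regions had folds of 17.2 and 18.8 and overlapped the only estradiol regions in the gene, which had folds of 7.50 and 6.35. The ethanol list held 13 regions there, with folds from 6.86 to 30.4.

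The HDAC7 regions followed its exons. The 9 LY500307 regions overlapped 15 of the 26 exons of the canonical transcript, from exon 3 to exon 25, the 2 estradiol regions 2 exons, and the 13 ethanol regions 21 exons. Of the bases of the 7 members 46% were exonic, beside 19% of the span they cover and 8.36% of the gene. In the LY500307 list no other protein-coding gene had more than 3 exons of its canonical transcript overlapped. In the ethanol list the next gene was ESR2, which encodes ER-beta and is the gene carried as a transgene by all groups, with 7 of 9 exons, and LY500307 and estradiol regions overlapped 2 each. Why regions lie over exons was not tested. The members' folds in HDAC7 are values of this one locus, and every count above that includes them is from 7 neighbouring regions.

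**Figure D5:**
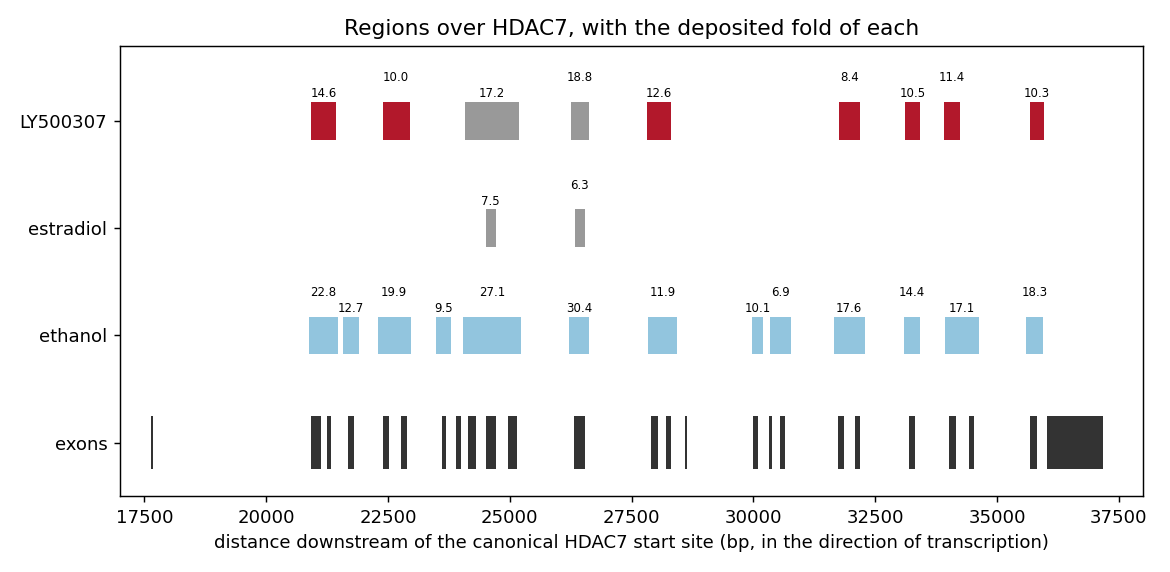
Regions over HDAC7 in the LY500307, estradiol and ethanol lists above the exons of its canonical transcript (black), by distance downstream of the start site in bp, with the deposited fold above each region. Red LY500307 regions are the 7 members with folds from 8.35 to 14.6, grey LY500307 regions are those shared with estradiol, and each red region has an ethanol region (blue) below it.

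The other 9 of the 15 highest members with an ethanol region lay outside HDAC7. They were picked for a high −log10 q with LY500307, and over all 144 members with an ethanol region the ethanol fold was the higher in 69. LDB2, an adaptor of LIM-domain proteins, had fold 11.4 with LY500307 and 4.03 with ethanol in intron 6, and the estradiol list had no region within 284 kb. WDR82, a subunit of SET1 histone methyltransferase complexes, had folds of 9.85 and 7.12 in intron 1, with an estradiol region 5.06 kb away. MGAT5, an enzyme that branches N-glycans, had folds of 10.9 and 9.15 at a member 129 kb from its TSS. SETBP1, which binds the SET protein, had folds of 10.4 and 5.04 in intron 2. BTN3A1, a butyrophilin sensed by gamma-delta T cells, had folds of 9.07 and 5.81 in intron 9. Near CDH11, a cadherin of mesenchymal cells, the folds were 10.5 and 5.73, and near REV1, a translesion DNA polymerase, 10.3 and 8.69. Near KHDRBS3, an RNA-binding protein gene, they were 9.11 and 6.87, and near GYPC, a red-cell membrane glycoprotein gene, 9.67 and 5.57. All but the GYPC member held the AAGG pair, so 8 of the 15 had it.

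The 15 highest members without an ethanol region lay in introns (4) or between genes (11), and 12 of them held the AAGG pair. The highest were in intron 9 of CACNA2D3, an auxiliary calcium channel subunit gene, and 919 kb from LRFN5, a synaptic adhesion gene, both with fold 10.9 and −log10 q 19.9. Their nearest estradiol regions were 524 kb and 1.42 Mb away. A member near OTOL1, an inner-ear collagen-like gene, had fold 10.5 and neither the pair nor an ERE. Near IGF1R, the receptor of insulin-like growth factor, the fold was 9.46 at 141 kb from its TSS, and near IGFBP3, which binds that factor, it was 8.58 at 593 kb. SNX7, a sorting nexin gene, had fold 9.63 at 236 kb, and the MGST1 intron near LMO3 fold 9.21. KCNJ3 and KCNU1, both potassium channel genes, were nearest to members with folds of 8.58 and 8.79. Intron 16 of BRIP1, a DNA repair helicase gene, and intron 7 of TEX9 had folds of 8.35 and 8.79. The rest, near CELF4, SERTM1, GPAT3 and ZNF518B, had folds from 7.82 to 8.79. Distances of this size do not tie a member to the gene that names it.

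Promoter members were weaker than these. With an ethanol region, the 5 highest were at ARID4A (fold 6.83, ethanol fold 4.84), GEMIN4 (7.12 and 5.69), HIF1A (6.70 and 5.95), RPL19 (5.89 and 6.09) and ACP1 (5.44 and 4.58). ARID4A is a chromatin-associated partner of the retinoblastoma protein, GEMIN4 is a part of the SMN complex, and HIF1A is the oxygen-regulated transcription factor subunit. The ARID4A member lay inside intron 11 at an alternative start and was the only one of these 5 with an AAGG pair and with a GC content under 60% (34.3%). Without an ethanol region the 5 highest were at SLF2 (fold 7.97), ALDH3A1 (7.79), ENY2 (6.79), CASP8 (7.53) and CRAT (6.83), and none held the pair. SLF2 recruits the SMC5/6 complex to damaged DNA, ALDH3A1 oxidises aldehydes, ENY2 belongs to the SAGA deubiquitinase module and CRAT is the carnitine acetyltransferase. Estradiol regions lay within 1 kb of the HIF1A, RPL19, ACP1, ENY2 and CRAT members.

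Genes near members were few. Of 19618 protein-coding genes, 592 (3.02%) had a member summit within 20 kb of a TSS, and 5171 (26.4%) had a shared region. Of 26 estrogen response genes such as GREB1, TFF1 and PGR, none had a member nearby and 13 had a shared region. None of 13 nuclear receptor coregulator genes, 9 AP-1 genes, 9 cystatin genes, 9 factors of epithelial-mesenchymal transition or 12 Hippo effector genes had a member nearby, against 7, 5, 7, 4 and 6 with a shared region. Lists of this length at the rate of all genes would hold fewer than 1 gene each, so a count of 0 says little.

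The lists with genes near members were the following. Of 18 histone deacetylase genes, HDAC7 and HDAC5 had a member with an ethanol region nearby (11.1%, beside 3.02% of all protein-coding genes with any member). The HDAC5 one lay in intron 1 of its neighbour HROB, with fold 5.07 and ethanol fold 5.35. Of 17 genes of SET1 and MLL methyltransferase complexes, WDR82 had a member with an ethanol region nearby. Of 20 genes of the TGF-beta and SMAD pathway, TGFBR2, its type II receptor, had a member 475 bp from its TSS in intron 1, with fold 7.21, GC content 66.7% and no ethanol region. Of 73 replication-dependent histone genes, 3 neighbours (H2AC17, H2BC17 and H3C12) shared 1 member nearest to OR2B2, with fold 4.93. In the same order of lists, 5, 5, 8 and 26 genes had a shared region nearby. Shares from so few genes near members say little.

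Of 87 cytosolic ribosomal protein genes, 12 (13.8%) had a member nearby, 2 with an ethanol region (RPL10A and RPL19) and 10 without, and 36 (41.4%) had a shared region. Among their members at promoters were those of RPL19, RPL37 (fold 5.36), RPL7A (5.31), RPL35 (4.56), RPL7L1 (4.02) and RPS25 (3.90), the last 5 without an ethanol region. The RPL28 member lay in exon 3 (fold 5.49), and RPL14, RPL24 and RPL31 were near members whose nearest TSS was that of ZNF619, ZBTB11 and NPAS2. The share exceeded that of all protein-coding genes for members and for shared regions alike. No test of these lists was made, since the members come from the overlap rule.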

How the data were processed

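The members and gene lists were chosen with earlier results of these data known. Per the submitters' processing notes, Bowtie2 2.2.6, MACS2 2.1.1.20160309, DiffBind and hg38 were used, with no role stated. The authors deposited 1 narrowPeak list per treatment, which all 4 ChIP libraries name in their labels, and how many of them were pooled is uncertain. Its columns are the authors' display score (not used), the deposited fold ratio, the deposited −log10 p-value (not used) and −log10 q-value, and the deposited summit offset in bases. Single libraries, inputs and DiffBind results were not used here.

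Regions on chromosomes 1 to 22 and X were kept, 10045 of 10059 for LY500307, 26861 of 26896 for estradiol and 2902 of 2911 for ethanol. Per-sample columns that could not be mapped numbered 0. Overlaps, windows of 100 bp on each side of the summit on hg38, GENCODE 44 positions and motifs on both strands were computed with Python 3.11.15, numpy 2.4.6, pandas 2.3.3, scipy 1.17.1 and pysam 0.24.0, plots with matplotlib 3.10.9, and low complexity with dustmasker of BLAST 2.17.0. Motif, run and overlap searches were tested on simulated data. No test was run across regions, since the overlap rule chose the members. A summit was placed, in order, in promoters first, then in UTRs and coding exons, then in introns, and otherwise between genes.

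Regions were named by a rule: in each kind of member the 15 highest by −log10 q, the 5 highest at promoters, the 5 longest runs and the 5 farthest from estradiol regions, every member with an ERE near its summit, every group of 3 or more within 100 kb and members within 20 kb of a listed gene. Some members and sequences that this rule names are not reported here. Each carries the name of the nearest protein-coding TSS and, where other, of the gene that holds it. Alternatives covered the overlap rule, the −log10 q threshold of each list, the windows, mismatches, run length, promoter and gene distance.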

Additional observations from a re-analysis of the deposited data

How the results depend on the processing

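Of 68 alternative values of the main quantities, 40 stayed within the interval or count limit of the reported value and 28 did not, beside 129 and 48 of 177 further values. Counting as members the regions with no estradiol summit within 200 bp gave 1232 members, a median fold of 5.69, GC content of 52.2%, runs in 3.08%, promoters in 21.6%, a median gap of 6.16 kb, nearby genes at 5.56% and the AAGG pair in 30.3%. Widening estradiol regions by 500 bp gave GC content of 42.8%, promoters in 11.7%, a gap of 49.7 kb, genes at 2.25% and the pair in 48.7%. LY500307 regions with −log10 q of at least 5 gave an ethanol overlap of 21.1%, a fold of 5.96, promoters in 13.2%, genes at 2.01% and the pair in 46.9%. Estradiol regions at that threshold moved only the genes, to 3.84%. Runs of at least 18 bases were in 7.36%, EREs with no mismatch in 0.245% and with at most 2 in 5.15%. The pair was in 28.2% with at most 1 mismatch, 65.2% with at most 3 (where downstream windows reached 36%) and 51.2% without promoters. Promoters of 2500 bp on both sides held 32.4%, and genes were at 1.77% within 5 kb and 9.25% within 100 kb. The order of the 2 kinds of member was not kept for low complexity: runs of at least 18 bases were in 6.94% with an ethanol region and 7.45% without, and windows masked over at least 50% in 6.25% and 5.66%. All alternatives of the pair were chosen after seeing the data, as was the GATA share without runs.

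No paired analysis was possible because each treatment has 1 pooled list without replicate numbers, and for the same reason no replicate was left out. Read totals are unknown, so the depth of the pools and the treatment cannot be told apart.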
